A study of Schizosaccharomyces pombe with 6 samples.

Results

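The genes described here are the transfer RNA (tRNA) genes in the nuclear genome of fission yeast (Schizosaccharomyces pombe), without the 8 tRNA-Ile and tRNA-Ala genes in and beside centromere 2 (SPBTRNAILE.05 to SPBTRNAILE.08 and SPBTRNAALA.08 to SPBTRNAALA.11). Of the 12606 annotated nuclear genes 171 code for a tRNA, and 163 remained after those 8 were left out. The 8 were left out by name with earlier results of these data known, and all 8 lay near a Pli1 summit, so the 163 are not the whole annotated class. The series mapped a pair of SUMO ligases on chromatin by calibrated ChIP-seq, and its title names fragile loci under replication stress. The groups were an untagged strain, a strain with Pli1-12Pk (Pli1 is a PIAS-family SUMO ligase) and a strain with Nse2-12Pk (Nse2 is the SUMO ligase of the Smc5/6 complex). All were exponential cultures in rich medium (YES), crosslinked with formaldehyde together with budding yeast cells (Ku70-cMyc) as a calibrator and precipitated with an antibody to the Pk tag. No other allele is named in the labels. There was 1 ChIP library for each strain, so no difference between strains was tested, and intervals given here are exact (Clopper-Pearson) 95% intervals that cover counting error only.

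tRNA genes are transcribed by RNA polymerase III from promoters that lie inside the gene. The factor TFIIIC binds these internal elements, called the A-box and the B-box, and brings TFIIIB, which recruits the polymerase to the start site. Transcription ends at a run of T just past the gene. tRNA genes are also known as places where replication forks can slow, and in fission yeast clusters of them flank and interrupt the centromeres, where they act as boundaries of heterochromatin.

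The values are the authors' called regions, each with 1 summit position and a score of unstated scale, which served only for ranks within a list. Median lengths were 28719 bp for the 299 Pli1 regions, 69235 bp for the 62 Nse2 regions and 559 bp for the 3535 untagged ones. All 163 tRNA genes lay inside a Pli1 region and inside an Nse2 region, so only the summits carry detail about them. Of all nuclear genes, 8.63% for Pli1 and 1.44% for Nse2 were outside every region, cut by an edge or within 1 kb of it. The rest also lay inside a region, so this trait is not particular to tRNA genes. A region gives 1 summit however long it is, and a tRNA gene without a summit is therefore not a tRNA gene without signal. Read depth is unknown for all lists. A gene is called near when a summit lay inside it or within 200 bp of its edge.

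The Pli1 summits near tRNA genes sat on genes of 9 amino acids, and 8 of the 11 distinct gene sequences among them are shown because they carry the finding. Letters are on the strand of the gene, from the start to the end of the annotated gene in ASM294v3, introns included. Capitals mark GTTCGANNC, a form of the B-box. The first 3 sequences each had a Pli1 summit at a pair of identical genes. They are tRNA-His (SPBTRNAHIS.02 on chromosome II, 960729 to 960800, plus strand, and SPCTRNAHIS.03 on chromosome III, 71400 to 71471, plus strand), tRNA-Pro (SPBTRNAPRO.06 on II, 2319292 to 2319363, plus, and SPBTRNAPRO.07 on II, 2939715 to 2939786, plus) and tRNA-Ser (SPATRNASER.02 on I, 3047677 to 3047758, minus, and SPATRNASER.04 on I, 5437747 to 5437828, plus).
SPBTRNAHIS.02 and SPCTRNAHIS.03: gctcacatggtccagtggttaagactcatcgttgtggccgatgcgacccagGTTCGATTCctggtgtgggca
SPBTRNAPRO.06 and SPBTRNAPRO.07: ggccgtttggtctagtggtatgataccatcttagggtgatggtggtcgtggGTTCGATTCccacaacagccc
SPATRNASER.02 and SPATRNASER.04: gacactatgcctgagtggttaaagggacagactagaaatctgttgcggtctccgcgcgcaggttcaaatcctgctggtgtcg

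The next set holds the other tRNA-Ser gene with a summit (SPBTRNASER.06 on II, 3350594 to 3350688, plus), the only 2 genes near a Pli1 summit whose sequence has no identical copy (SPBTRNAARG.05 on II, 1160893 to 1160994, minus, and SPBTRNAPHE.03 on II, 2576376 to 2576448, minus), and the pair of neighbours in centromere 3 that shared a summit (SPCTRNAARG.13 on III, 1106327 to 1106399, plus, and SPCTRNAASP.07 on III, 1106487 to 1106557, minus). The SPCTRNAASP.07 sequence is also that of SPATRNAASP.02 (I, 5232917 to 5232987, minus), which had a summit of its own.
SPBTRNASER.06: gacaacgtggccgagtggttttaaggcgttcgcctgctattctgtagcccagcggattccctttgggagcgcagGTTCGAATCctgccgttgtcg
SPBTRNAARG.05: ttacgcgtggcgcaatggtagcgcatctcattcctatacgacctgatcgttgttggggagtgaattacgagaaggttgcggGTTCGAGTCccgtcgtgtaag
SPBTRNAPHE.03: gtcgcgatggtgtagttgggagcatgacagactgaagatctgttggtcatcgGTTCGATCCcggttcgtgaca
SPCTRNAARG.13: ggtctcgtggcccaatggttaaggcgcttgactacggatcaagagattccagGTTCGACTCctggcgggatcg
SPCTRNAASP.07 and SPATRNAASP.02: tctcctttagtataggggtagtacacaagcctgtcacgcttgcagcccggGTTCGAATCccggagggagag

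Of the 163 tRNA genes, 16 lay near a Pli1 summit (9.82%, interval 5.72 to 15.5%), against 473 of all 12606 nuclear genes (3.75%). These 16 genes shared 15 summits. Positions within 200 bp of a Pli1 summit made up 0.954% of the genome. Other short genes came to a like share: of 92 genes of at most 150 bp that are no tRNA gene, 9 were near a Pli1 summit (9.78%, interval 4.57 to 17.8%). Those 9 were 4 small nucleolar RNA genes, 4 5S rRNA genes and 1 further non-coding RNA gene, and 2 of the 5S genes (SPRRNA.39 and SPRRNA.06) were near a summit that lay closer to a tRNA gene. The share of tRNA genes was thus above that of all genes and close to that of other short genes.

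In the untagged strain, the control for signal that needs no tag, the count was 9 of 163 (5.52%, interval 2.56 to 10.2%), against 4820 of all nuclear genes (38.2%), and it came from 7 summits. Of the 92 other short genes 3 were near an untagged summit (3.26%, interval 0.678 to 9.23%), so the lower share than over all genes was not seen beside genes of like length. For Nse2 the count was 2 of 163 (1.23%, interval 0.149 to 4.36%), against 86 of all nuclear genes (0.682%) and 1 of the 92 other short genes (1.09%, interval 0.0275 to 5.91%), and both tRNA genes shared 1 summit. Near a Pli1 summit and not near an untagged one were 12 tRNA genes (7.36%, interval 3.86 to 12.5%), against 172 of all nuclear genes (1.36%) and 6 of the 92 other short genes (6.52%, interval 2.43 to 13.7%). The other 4 of the 16 were SPCTRNAARG.13, SPCTRNAASP.07, SPCTRNAASN.06 and SPBTRNAASN.02.

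The distances over the whole set ran the same way. From a tRNA gene to the nearest Pli1 summit the median was 10640 bp (lowest 0, highest 131082 at SPBTRNAGLU.08), against 14757.5 bp over all nuclear genes. For Nse2 it was 55650 bp against 103097 bp. For the untagged list it was 1686 bp (lowest 18, highest 8821) against 672 bp. As a set the tRNA genes thus had a lower median than all genes for both tagged lists and a higher one for the untagged list. For Pli1 the lower median was not seen in single genes. It was 4453.5 bp in the 58 genes no more than 2 kb from another tRNA gene (clustered). In the other 105 (single) it was 14922 bp. For Nse2 the medians were 23310.5 bp clustered and 89166 bp single, and for the untagged list 1832 and 1521 bp. Long genes reach a summit more readily than short ones, and this was not adjusted for.

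**Figure D1:**
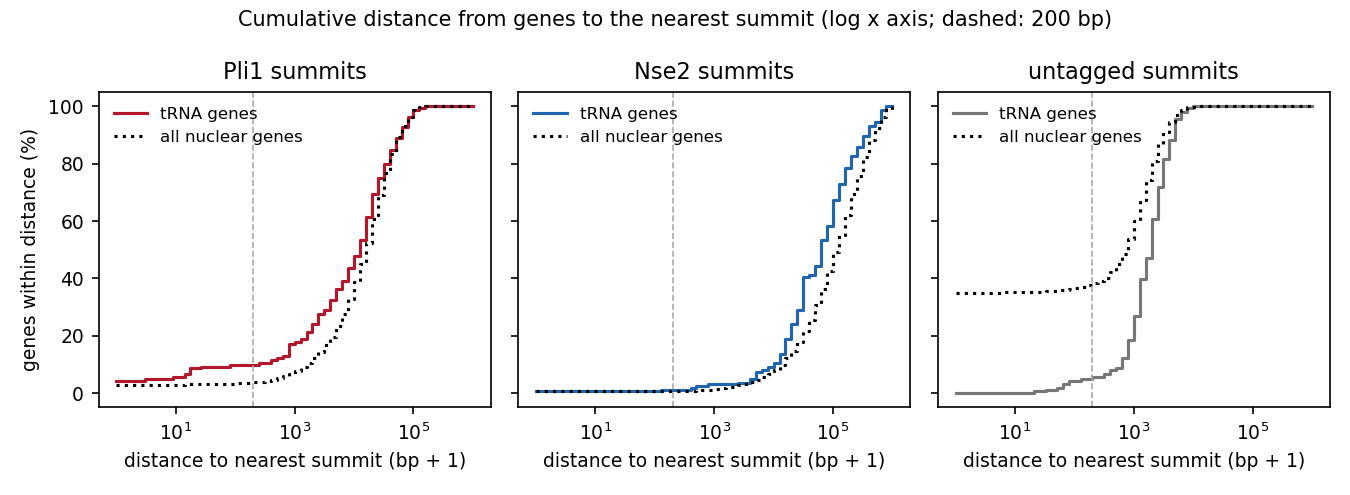
Share of genes (y axis, percent) whose nearest summit lies within the distance on the log x axis (bp + 1), for the 163 tRNA genes (solid) and all 12606 nuclear genes (dotted) and for each of the 3 lists. The tRNA line stands above the dotted line for Pli1 at 200 bp (9.82 against 3.75%) and below it for the untagged list (5.52 against 38.2%).

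The Pli1 summits lay on the tRNA genes themselves or at their edges. Of the 15 summits, 7 fell inside a tRNA gene, 3 before its 5′ end and 5 past its 3′ end. The distance to the nearest tRNA gene had a median of 2 bp and a highest value of 23 bp. No further gene was as close: the nearest gene of any other kind was 28 to 653 bp from these summits, and the nearest protein-coding gene 88 to 36194 bp. Of the 15, 12 lay outside untagged peaks. Their scores ran from 1859 to 6816 with a median of 2855, at ranks 34 to 205 of 299, beside a median score of 2537 over the whole list.

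**Figure D2:**
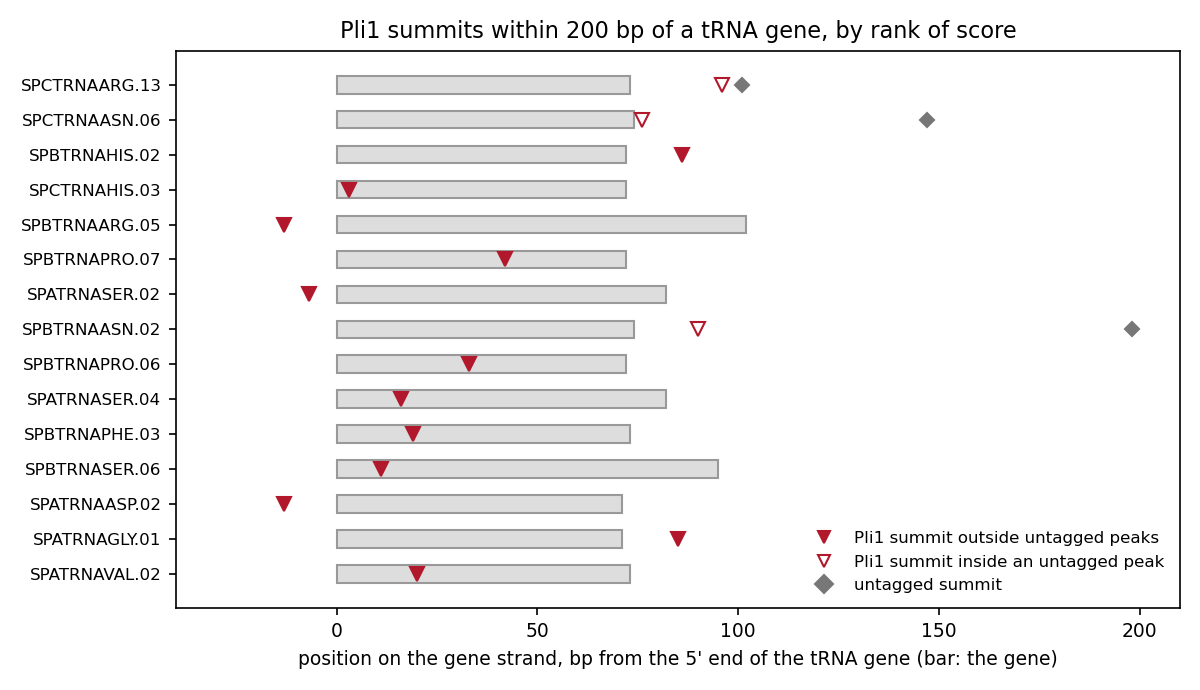
Position of each of the 15 Pli1 summits (triangles) on the strand of its nearest tRNA gene (bars, drawn from the 5′ end in bp), ordered by the rank of the region's score, with untagged summits within 200 bp of the same gene as diamonds. Filled triangles are the 12 summits outside untagged peaks, and open triangles the 3 inside one.

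tRNA-His genes, which code for the carrier of histidine, had the highest share of any amino acid, with 2 of 4 genes near a Pli1 summit (50%, interval 6.76 to 93.2%). At SPBTRNAHIS.02 the summit lay 14 bp past the 3′ end (score 3763, rank 79), and the nearest untagged summit was 661 bp from it. At SPCTRNAHIS.03 the summit fell inside the gene, at base 3 of 72 (score 3527, rank 92), with the nearest untagged summit 1008 bp away. SPBTRNAHIS.01 missed the limit by little at 210 bp, and its summit lay 8 bp from the 5S gene SPRRNA.28. SPCTRNAHIS.04 was 5195 bp from a summit. All 4 genes have the same sequence.

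tRNA-Pro, tRNA-Ser and tRNA-Phe genes held 6 of the 12 tRNA genes near Pli1 and not near untagged summits. For tRNA-Pro the count was 2 of 9 (22.2%, interval 2.81 to 60%). Both of these summits fell inside the gene, at base 42 of 72 in SPBTRNAPRO.07 (score 3125) and at base 33 of 72 in SPBTRNAPRO.06 (score 2800). For tRNA-Ser it was 3 of 13 (23.1%, interval 5.04 to 53.8%). The summit lay 7 bp before SPATRNASER.02 (score 3110), at base 16 of SPATRNASER.04 (score 2754) and at base 11 of SPBTRNASER.06 (score 2382). SPBTRNAPHE.03 was the only one of 5 tRNA-Phe genes, with a summit at base 19 of 73 (score 2577). The untagged summits nearest to these 6 lay 542 to 4157 bp away.

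tRNA-Asn genes were near summits of both the Pli1 and the untagged list. The count was 2 of 6 in each (33.3%, interval 4.33 to 77.7%), at the same 2 genes, and both stand before a 5S rRNA gene, another gene of RNA polymerase III. The stretches from each tRNA-Asn gene to its 5S gene are shown on the plus strand, with the tRNA gene in capitals, because they place the summits of both lists. The first is chrIII:1701899-1702122 and the second chrII:2032160-2032409.
SPCTRNAASN.06 to SPRRNA.06: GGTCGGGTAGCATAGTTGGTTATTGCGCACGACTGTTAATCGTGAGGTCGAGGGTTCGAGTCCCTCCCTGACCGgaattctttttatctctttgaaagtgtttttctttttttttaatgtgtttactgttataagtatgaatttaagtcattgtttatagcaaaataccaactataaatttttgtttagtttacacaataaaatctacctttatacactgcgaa
SPBTRNAASN.02 to SPRRNA.39: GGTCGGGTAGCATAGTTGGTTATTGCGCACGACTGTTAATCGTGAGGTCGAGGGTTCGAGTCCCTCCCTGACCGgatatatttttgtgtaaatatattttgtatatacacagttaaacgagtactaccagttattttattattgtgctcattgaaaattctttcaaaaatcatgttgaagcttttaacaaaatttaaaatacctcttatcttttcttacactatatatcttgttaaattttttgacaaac

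Counted from the first base of each stretch, the Pli1 summit lay at base 76 in the first, 2 bp past SPCTRNAASN.06 (score 4434, rank 58), and at base 90 in the second, 16 bp past SPBTRNAASN.02 (score 2855, rank 124). The untagged summits lay at bases 147 and 198, with scores of 109 (rank 2081 of 3535) and 64 (rank 2947). Pli1 summits were thus on the tRNA side of the stretch, and untagged summits 71 and 108 bp nearer the 5S gene. Each Pli1 summit fell inside the untagged peak. Of the other tRNA genes with a 5S gene within 500 bp, SPCTRNAARG.09 had an untagged summit at 191 bp, inside SPRRNA.26, and its nearest Pli1 summit at 10300 bp. SPBTRNATHR.06 and SPBTRNAASN.04 were 72604 and 28666 bp from a Pli1 summit. At SPBTRNAHIS.01 the Pli1 summit lay 210 bp past the tRNA gene and 8 bp from the 5S gene SPRRNA.28. It was thus on the 5S side, unlike the Pli1 summits at the tRNA-Asn genes.

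Among the remaining amino acids, tRNA-Asp had 2 of 8 genes near a Pli1 summit (25%, interval 3.19 to 65.1%), tRNA-Arg 2 of 13 (15.4%, interval 1.92 to 45.4%), tRNA-Gly 1 of 12 and tRNA-Val 1 of 12 (8.33% each, interval 0.211 to 38.5%). SPATRNAASP.02 had its summit 13 bp before the gene (score 2133), and SPBTRNAARG.05 also 13 bp before the gene (score 3304). At SPATRNAGLY.01 it lay 14 bp past the gene (score 1928), 28 bp from the non-coding RNA gene SPNCRNA.2736. At SPATRNAVAL.02 it fell on base 20 of 73 (score 1859), the lowest of the 15 scores. The nearest untagged summits to these 4 lay 1042 to 6379 bp away.

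The count was 0 for 11 amino acids: Ala (8 genes), Cys (3), Gln (6), Glu (10), Ile (5), Leu (13), Lys (12), Met (7), Thr (10), Trp (3) and Tyr (4). The 0 for Ala and Ile holds only without the genes of centromere 2, and with them the counts were 4 of 12 Ala and 4 of 9 Ile genes. For Leu, one of the amino acids with the most genes, a count of 0 of 13 still leaves an interval up to 24.7%, which holds the overall share of 9.82%. Among the 163 genes the intervals of all 20 amino acids held that share, so these counts do not set one amino acid apart from the others. Nse2 was near genes of Arg and Asp (1 each). The untagged list was near Arg (3 genes), Asn (2), Asp (2), Leu (1) and Lys (1). For 5 genes with ASP in the ID the product field of the annotation reads tRNA-Asn. They are counted as Asp because 4 of them have the sequence of genes annotated as tRNA-Asp.

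**Figure D3:**
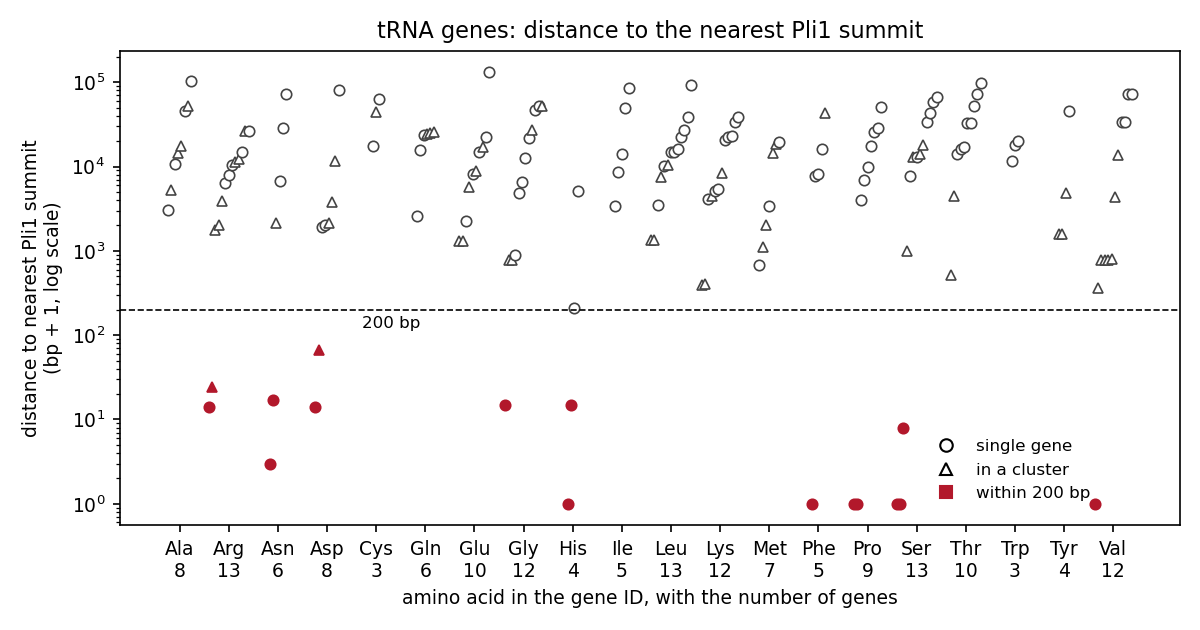
Distance from each of the 163 tRNA genes to its nearest Pli1 summit (log y axis, bp + 1), by the amino acid in the gene ID with the number of genes. Filled points are the 16 genes within 200 bp, circles single genes and triangles genes in clusters; SPBTRNAHIS.01 stands just above the line at 210 bp.

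Genes with the same sequence differed in whether a Pli1 summit was near. The 163 genes have 69 distinct sequences, and the 16 genes near a Pli1 summit have 11 of them. Of these 11 sequences, 9 occur in more than 1 gene, and in 0 of the 9 were all copies near a summit. The other copies numbered 36. Copies of the tRNA-Gly sequence of SPATRNAGLY.01, for example, were 778 to 51832 bp from a Pli1 summit, and the further copy of SPATRNAVAL.02 was 72686 bp from one. The summit thus varied between places that hold the same gene. With 9.82% of the 163 genes near a summit, a sequence in several genes would seldom have all of them near, so the 0 says little. A copy without a summit is also not a copy without signal.

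Features in and beside the gene were set side by side for the 16 genes near a Pli1 summit and the other 147, and 16 genes are too few to show that they are alike. The B-box letters GTTCGANNC, searched on the gene strand, stood in 14 of the 16 genes near a Pli1 summit and in 113 of the other 147. They occur in 127 of all 163 (77.9%), against 0.366% of 172216 genome tiles of 73 bp, the median length of these genes, searched on both strands. The 2 without these exact letters were SPATRNASER.02 and SPATRNASER.04. A run of 4 T within 50 bp past the 3′ end followed 16 of 16 and 143 of 147 genes. Introns were in 2 of the 16 (SPBTRNAARG.05, 30 bp, and SPBTRNASER.06, 9 bp) and in 42 of the 147. As shares, 4.55% of 44 genes with an intron (interval 0.555 to 15.5%) and 11.8% of 119 without (interval 6.58 to 19%) were near a summit, and the intervals overlap. The AT content of the 200 bp on each side had a median of 70.9% in the 16 genes (64.5 to 74.2%) and 72.2% in the others (63.2 to 79.2%).

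Single tRNA genes held 14 of the 16 genes near a Pli1 summit. Genes no more than 2 kb from the next tRNA gene were chained into clusters, which gave 58 genes in 18 clusters, 10 of them pairs, and 105 single genes. Of the single genes 14 were near a Pli1 summit (13.3%, interval 7.49 to 21.4%), and of the clustered ones 2 (3.45%, interval 0.42 to 11.9%). Clustered minus single was -9.89 percentage points, with an approximate interval from -18.5 to 0.39. By locus, 1 of 18 clusters had a gene near a summit (5.56%, interval 0.141 to 27.3%). The lower count in clusters depends on leaving out the genes of centromere 2. In 4 of the clusters the summit lay at a gene left out, and with those 8 genes counted the shares were 10 of 66 clustered and 14 of 105 single genes, a difference of 1.82 points the other way. For the untagged list the order was reversed in the 163 genes, with 6 of 58 clustered (10.3%, interval 3.89 to 21.2%) and 3 of 105 single genes (2.86%, interval 0.593 to 8.12%). These 6 lay in only a few clusters: 1 at the left side of centromere 2 and a pair in centromere 3, with 2 genes in each. In centromere 3 the 2 genes of a cluster were near the same summit, and the intervals count them as separate.

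Each region gives 1 summit, so the Pli1 regions were also grouped by the number of the 163 genes they held. The 163 genes lay in 77 Pli1 regions, and in 15 of them the summit was near any of these genes (19.5%, interval 11.3 to 30.1%). Of the 44 regions that held exactly 1 of the genes, 11 had their summit at it (25%, interval 13.2 to 40.3%). It was 2 of 17 for regions with 2 genes (11.8%, interval 1.46 to 36.4%) and 2 of 16 for regions with 3 or more (12.5%, interval 1.55 to 38.3%), which held 85 genes. The median region lengths were 51884, 93620 and 121337.5 bp in the same order. A region with its summit at a gene left out was counted as having none. Such were the regions of SPBTRNAILE.05 and SPBTRNAILE.08 (3 or more genes each) and of SPBTRNAILE.06 (2 genes). The lower shares in regions with more genes thus depend in part on leaving those genes out. SPATRNASER.02's region of 212061 bp held 4 tRNA genes, and its 1 summit was near SPATRNASER.02 only. Whether the number of genes in a region, or its length, is related to the lower share in clusters was not tested.

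In centromeres, by intervals recalled from PomBase that no file here could check, 2 of 24 tRNA genes were near a Pli1 summit (8.33%, interval 1.03 to 27%), and elsewhere 14 of 139 (10.1%, interval 5.62 to 16.3%). Both lay in centromere 3, with 2 of 12 genes there and 0 of 6 in each of centromeres 1 and 2. Centromeric minus other was -1.74 points (interval from -11.3 to 17.5), and it was -7.22 with the intervals widened by 5 kb, which took in 44 genes. It turned to 8.84 when the 8 genes left out were counted and to 0.27 with a limit of 500 bp. For Nse2 both genes were centromeric, 2 of 24 against 0 of 139 elsewhere. For the untagged list the count was 4 of 24 (16.7%, interval 4.74 to 37.4%) against 5 of 139 (3.6%, interval 1.18 to 8.19%). Outside centromeres 12 tRNA genes were near a Pli1 and not near an untagged summit, and inside them 0 of 24, or 4 of 28 with the genes left out.

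Centromere 3 held a mirrored pair of clusters, each with a tRNA-Asp, a tRNA-Arg, a tRNA-Val and a tRNA-Thr gene, and each list had a summit in one or both. In the left cluster the Nse2 summit fell inside SPCTRNAARG.12, at base 57 of 73 (score 16184, rank 20 of 62), 104 bp from SPCTRNAASP.06. The untagged summit there lay 34 bp from it, 18 bp past SPCTRNAARG.12 (score 394, rank 327 of 3535). In the right cluster the Pli1 summit lay 23 bp past SPCTRNAARG.13 and 65 bp from SPCTRNAASP.07 (score 6816, rank 34 of 299), and the untagged summit 5 bp from that (score 584, rank 131). All these summits thus stood in or beside the tRNA-Arg gene of a cluster, with the Pli1 and Nse2 summits on opposite sides of the centromere. One Pli1 region (1090676 to 1108195) and one Nse2 region (1083544 to 1108284) spanned both clusters, so each list could give a single summit for them. Every 50-mer in the 200 bp on each side of these genes occurs more than once in the genome (302 of 302 at each), and all 8 genes touched an untagged peak. Whether reads from both sides can be told apart was not tested.

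**Figure D4:**
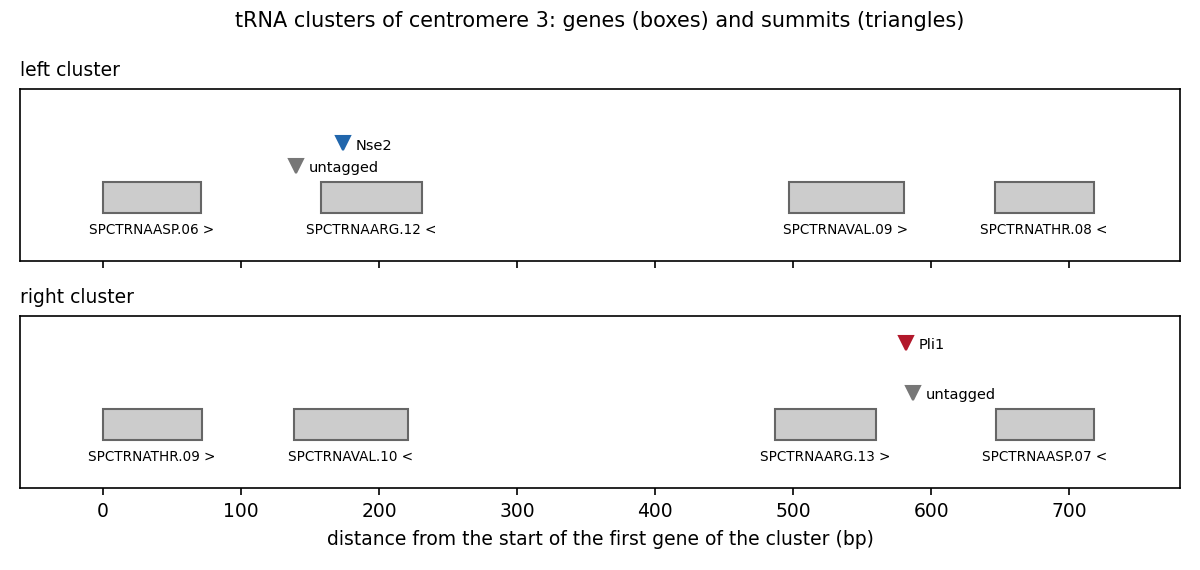
The mirrored tRNA clusters of centromere 3, drawn by distance (bp) from the start of the first gene of each. Boxes are tRNA genes with their strand, and triangles are summits: Nse2 and untagged in the left cluster, Pli1 and untagged in the right one, all in or beside the tRNA-Arg gene.

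Repeated sequence was assessed in the flanks, since 125 of the 163 genes have an identical copy elsewhere. Flanks were called repeated where at least 50% of the 50-mers in the 200 bp on each side occur more than once in the nuclear genome. Of 33 genes with repeated flanks 2 were near a Pli1 summit (6.06%, interval 0.743 to 20.2%), and of 130 with unique flanks 14 (10.8%, interval 6.01 to 17.4%). Repeated minus unique was -4.71 points (interval from -13.2 to 10.2), and it turned to 13.6 with the 8 genes left out counted. The 12 genes near Pli1 and not near untagged summits all had unique flanks, but the 8 genes left out, also near Pli1 and not near untagged summits, all had repeated ones (8 of 20 with them). Of the 163 genes, 23 of the 24 centromeric genes had repeated ones. Both genes near Nse2 and 6 of the 9 near untagged summits were among the 33. The file headers name reads uniquely mapped to S. pombe and do not say whether this means a single place in the genome or this genome and not the calibrator's, so how repeated places were counted is unknown.

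**Figure D5:**
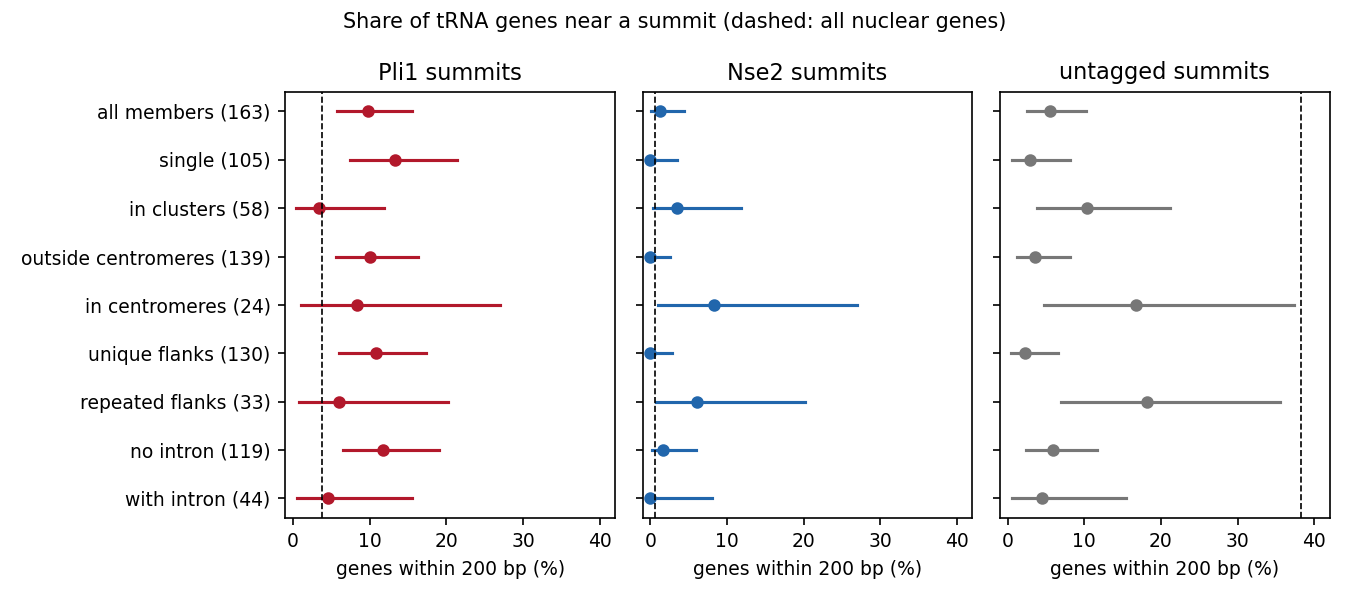
Share of tRNA genes within 200 bp of a summit (points, percent) with exact 95% intervals (lines), by position, flanks and introns, for each list, with the number of genes in brackets and all nuclear genes as dashed lines (3.75, 0.682 and 38.2%). For Pli1 the points for single genes and for unique flanks stand at 13.3 and 10.8%, and for the untagged list every point lies left of the dashed line.

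The untagged summits near tRNA genes had low scores outside centromere 3. The remaining 5 of the 7 summits were at SPBTRNALEU.06 (60 bp, score 127), SPCTRNAASN.06 (73 bp, score 109), SPBTRNAASN.02 (124 bp, score 64), SPCTRNAARG.09 (191 bp, score 61) and SPBTRNALYS.07 (44 bp, score 44), in a list whose median score is 129. No untagged summit fell inside a tRNA gene, and 2 of the 7 were closer to a 5S gene than to the tRNA gene. SPBTRNALYS.07 and SPBTRNALEU.06 belong to a cluster of 12 tRNA genes at the left side of centromere 2 that also holds 2 of the genes left out.

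Just outside the 200 bp limit, the nearest genes to a Pli1 summit were SPBTRNAHIS.01 (210 bp), SPCTRNAVAL.10 (362 bp), SPBTRNALYS.08 (397 bp), SPBTRNALYS.07 (399 bp) and SPCTRNATHR.09 (511 bp). The lysine genes stand beside the tRNA-Ile and tRNA-Ala genes left out, which were all near a Pli1 summit (8 of 8) and of which 0 were near an untagged one. For Nse2 they were SPCTRNAVAL.09 (323 bp), SPCTRNATHR.08 (472 bp) and SPBTRNAVAL.07 (782 bp). For the untagged list they were SPBTRNAGLY.07 (255 bp), SPBTRNATYR.02 (311 bp) and SPCTRNAVAL.09 (357 bp). Few tRNA genes lay close to the edge of a called region, although their median distance to an edge was below that of all genes. The medians were 14327 against 15245.5 bp for Pli1 and 58072 against 116923.5 bp for Nse2. Of the 163 genes 3 lay within 1 kb of the edge of their Pli1 region (1.84%; SPBTRNAVAL.07, SPBTRNAHIS.01 and SPCTRNAHIS.03), against 8.63% of all nuclear genes, and 0 within 1 kb of an Nse2 edge, against 1.44%. Genes cut by an edge or outside every region entered the values for all genes as 0 bp. All 163 tRNA genes lay inside a region, so the sets are not alike and these contrasts do not set tRNA genes apart.

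Among other genes of the RNA polymerase III system, some 5S rRNA genes and the TFIIIB genes bdp1 and brf1 had Pli1 summits near them. Of 36 5S rRNA genes, which code for the small RNA of the large ribosomal subunit, 5 were near a Pli1 summit (13.9%, interval 4.67 to 29.5%), 0 near Nse2 and 3 near an untagged one. Over all nuclear genes the shares were 3.75% for Pli1, 0.682% for Nse2 and 38.2% for the untagged list. Without SPRRNA.39 and SPRRNA.06, whose Pli1 summits were nearer the tRNA-Asn genes, SPRRNA.15 (0 bp), SPRRNA.28 (8 bp) and SPRRNA.34 (11 bp) remained. The U6 RNA gene snu6 was 101542 bp from a Pli1 summit and the signal recognition particle RNA gene srp7 17776 bp. The RNase P RNA gene rrk1 (26965 bp) and the RNase MRP RNA gene mrp1 (40907 bp) were listed beside them. Which polymerase transcribes rrk1 and mrp1 was not assessed here, so their distances are not a result about RNA polymerase III. Of the TFIIIC genes sfc1, sfc3, sfc4, sfc6, sfc7 and sfc9, 0 were near a Pli1 summit, the closest being sfc6 at 685 bp. Of the TFIIIB genes, bdp1 (0 bp) and brf1 (67 bp) were near a Pli1 summit and tbp1 (15975 bp) was not. The gene maf1 (10446 bp), which codes for the repressor of the polymerase, was not near a Pli1 summit either. Over all protein-coding genes the share was 4.6%. An untagged summit lay inside brf1, while the nearest to bdp1 was 10688 bp away.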

How the data were processed

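Called regions of 3 ChIP libraries were used, and the 3 inputs were not analysed here. Per the labels, IP over input signal was normalised to a budding yeast calibrator. The lists rest on uniquely mapped S. pombe reads and a p-value track and are named for single libraries, per the file headers. Per the submitters' processing notes the tools were MACS3, Bowtie2, cutadapt and SAMtools, without versions, and sacCer3 is the only build listed. Values are the authors' deposited score for each region and its positions. Score scale, calling threshold and depth were not given in the sources used. The fission yeast build is not stated, and the sequence names match the RefSeq ASM294v3 reference, which gave the genes and sequences.

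Distances from gene edges to summits, clusters, repeated 50-mers on either strand and motifs were computed in Python 3.11.15 with NumPy 2.4.6; SciPy 1.17.1 gave the intervals and Matplotlib 3.10.9 drew the figures. The approximate interval of a difference of 2 shares adds the squared distances to their exact bounds. Centromere intervals were entered from knowledge of PomBase and could not be checked against a file. On simulated data the distances of 60 of 60 planted summits were recovered. Named genes are those near any summit, the nearest outside the limit and the farthest. The genes and lists were chosen with earlier results of these data known. The use of the ID for the amino acid, and the counts for other short genes, region edges, 5S neighbours and the 8 genes added back by class, were made after seeing the data. Alternatives changed the distance limit and its reference point, the score threshold, the length of the untagged list, the genes included and the definitions of clusters, centromeres and repeats.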

Additional observations from a re-analysis of the deposited data

How the results depend on the processing

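The count of tRNA genes near a Pli1 summit stayed within 1.5 times of 16 under every alternative run: 15 within 50 bp, 16 within 100 bp or from gene midpoints, 20 within 500 bp, 12 with scores at or above the list's median or with summits outside untagged peaks (chosen after seeing the data), 14 without centromeric genes or without repeated flanks, 11 as distinct sequences and 24 with the 8 genes of centromere 2. These counts have different totals: 139 genes without centromeric ones, 130 without repeated flanks, 171 with the 8 genes, and 69 distinct sequences. Within 50 bp of a Pli1 summit lay 9.2% of the 163 genes against 3.23% of all nuclear genes. Within 100 bp it was 9.82 against 3.36%. The count near Pli1 and not near untagged summits ranged from 9 to 14, and was 20 with those 8 genes. The Nse2 count of 2 became 1 within 50 bp and 1 within 100 bp, 4 within 500 bp, 4 with the 8 genes, 0 without centromeric genes and 0 without repeated flanks. The untagged count of 9 became 3 within 50 bp, 14 within 500 bp, 4 with scores at or above the median, 2 with a list as long as the Pli1 list, 5 without centromeric genes, 3 without repeated flanks and 5 as distinct sequences. Clustered minus single ranged from -13.7 to -5.67 points, and was 1.82 with the 8 genes. Centromeric minus other was -7.22 points with intervals widened by 5 kb, 0.27 within 500 bp and 8.84 with the 8 genes. Repeated minus unique flanks ranged from -10.9 to -4.59, and was 13.6 with the 8 genes. By the product field, 1 of 3 tRNA-Asp and 3 of 11 tRNA-Asn genes were near a Pli1 summit. No paired analysis was possible because each strain has 1 ChIP library. With no replicates and no read depth, no precision beyond counting error can be given.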
